A study of Mus musculus with 11 samples.

Results

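CD45RBlo memory CD8 T cells were compared with naive CD8 T cells by RNA sequencing of sorted spleen cells of C57BL/6 mice. Members were chosen by group label, which gave 4 CD45RBlo and 3 naive libraries, 7 of the 11 libraries in the series. The memory mice had received 200000 pfu of lymphocytic choriomeningitis virus (LCMV) Armstrong into the peritoneum, a strain that causes an acute infection that is cleared. Spleen cells were taken on days 42 to 45, stained with a tetramer carrying the viral nucleoprotein peptide NP396, and sorted to a stated purity above 99%. The CD45RBlo group is the tetramer-binding memory fraction with low surface CD45RB. The naive group is CD44lo CD8 T cells and was not selected for antigen specificity. Its labels repeat the infection text and add a time of 6 to 8 weeks whose meaning is not given, so the age and exposure of those mice are not known here. All the memory cells therefore come from 1 epitope and 1 time after infection. Nothing in the labels says that replicates were separate animals, so a p-value here reflects only the variation among these libraries, part of which may be technical.

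A naive CD8 T cell circulates through lymph nodes, drawn there by homing receptors such as CCR7, and carries no loaded killing machinery. After infection the responding clones expand, and a minority persists as memory cells that patrol blood and tissue, keep granzymes and perforin or their messages, and release cytokines quickly on meeting the antigen again. CD45 is a phosphatase of T cell receptor signalling whose exons A, B and C are spliced in or out. CD45RB, the form that holds exon B, is high on naive cells and is lost from part of the memory pool.

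Total counts ran from 18.02 to 20.7 M in the naive and from 18.5 to 22.2 M in the CD45RBlo libraries. Levels are given as CPM, a gene's counts relative to the scaled total of its library. On the first principal component of the 1000 most variable genes, with 93.1% of the variance, naive libraries lay between -81.1 and -78.7 and CD45RBlo libraries between 56.9 and 61.0. On the second, with 2.56%, CD45RBlo replicate 1 lay at 25.7 and stood apart from the other CD45RBlo libraries at -13.3 to -6.09. T cell identity was present in every library: of 15 genes of alpha beta CD8 T cells, Thy1, Lck and Runx3 rose, Cd8a fell with a log2 fold change of -0.44 ± 0.0865, and 11 did not pass. Cd4 had too few counts to be tested. Markers of other cells differed between the groups in both directions. Beside each list of this paragraph, the shares over all genes tested that passed were 22.7% higher and 22.1% lower. Of 18 B cell genes tested, 16 were lower and 1 higher in CD45RBlo, and their summed level was 1309 to 1504 CPM in naive and 224 to 487 CPM in CD45RBlo libraries. All 11 erythroid and platelet genes tested were lower, at 263 to 568.6 CPM, the highest in naive replicate 1, against 3.89 to 30.3 CPM, and 10 of 12 myeloid genes were lower and 1 higher, at 63.0 to 102 CPM against 32.0 to 43.3 CPM. Of 9 genes of CD4 and regulatory T cells 5 were higher and 1 lower, at 36.9 to 41.8 CPM in naive and 129 to 178 CPM in CD45RBlo libraries. Cxcr5 went from 14.3 to 88.04 CPM and Foxp3, the factor of regulatory T cells, from 1.11 to 0.0241 CPM. Of 8 genes of dendritic cells, several of which T cells also express, 4 were higher and 1 lower, at 283 to 339 CPM in naive and 297 to 365.6 CPM in CD45RBlo libraries. Their part in the results was not tested. Of their defining genes, Ly6g of neutrophils was at 0 in all 7 libraries, Pax5 of B cells at 0.201 CPM in naive and 0 in CD45RBlo, and the platelet genes Ppbp and Tubb1 at 2.08 and 1.29 CPM in naive and 0 in CD45RBlo.

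The size of the difference was set first. A log2 fold change is CD45RBlo minus naive, so 1 is a doubling, and a gene passed when its adjusted p in edgeR's quasi-likelihood test was below 0.05. Where a gene is said to have risen or fallen by a value with no unit, that is its log2 fold change, ± SE where given. Of 13172 genes tested, 5906 passed (44.8%), of which 2992 were higher in CD45RBlo (22.7%) and 2914 lower (22.1%). Without CD45RBlo replicate 1 the count was 5874. Many of the changes were small: 3185 of the genes that passed had a log2 fold change between -1 and 1. Against a threshold of more than 2-fold, 1749 genes passed (13.3%), 990 of them higher (7.52%) and 759 lower (5.76%). At the far ends 289 genes were higher by at least 5 on the log2 scale and 153 lower by at least 5. Scaling by total counts alone moved the median log2 fold change of all genes from -0.02 to -0.14, and the split then was 2362 higher and 3761 lower. Because the cells are measured in bulk, fewer cells of a type and less RNA per cell cannot be told apart.

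**Figure D1:**
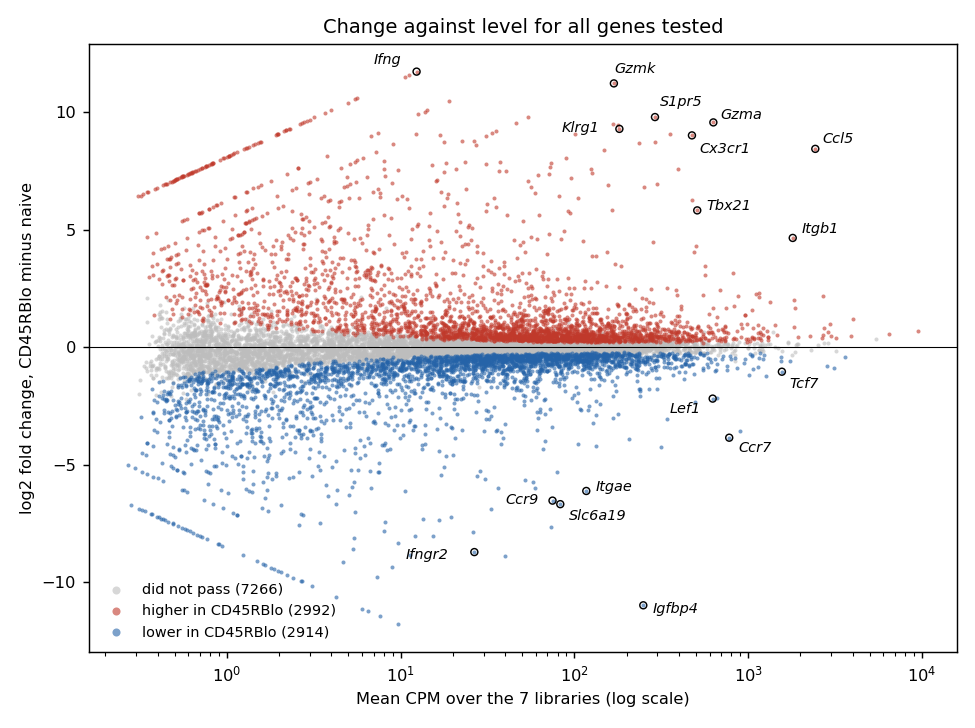
Log2 fold change of CD45RBlo minus naive (vertical) against the mean CPM over the 7 libraries on a log scale (horizontal), 1 point per gene tested. The 2992 genes higher in CD45RBlo are red, the 2914 lower are blue and the others grey; straight streaks at the left are genes with 0 counts in 1 group, and the ringed genes are named in the text.

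The largest differences were in genes with counts in 1 group and few or none in the other. Ifng, the interferon gamma gene, had 0 counts in all 3 naive libraries and 20.2, 20.8, 25.4 and 20.1 CPM in the CD45RBlo libraries. Against the 3 counts that a count of 0 allows over the naive group, its level was at least 434-fold higher. Cyp17a1, a steroid-synthesis enzyme, and Cpne7, a copine, were likewise at 0 in naive libraries and reached 19.6 and 18.6 CPM in CD45RBlo. In the other direction, Dntt, the polymerase that adds bases at receptor junctions in the thymus, fell from 15.1 CPM to 0 in all 4 CD45RBlo libraries, at least 389-fold lower. Kcna2, Plaur and Gpr83 fell to 0 from 22.4, 17.7 and 14.02 CPM. Igfbp4, which encodes a secreted binding protein of insulin-like growth factors, had 647, 638 and 458 CPM in naive and 0.171, 0.349, 0.216 and 0.373 CPM in CD45RBlo libraries. Its log2 fold change of -10.97 ± 0.214 (adjusted p = 9.3e-11) was the largest fall among genes averaging at least 10 CPM. Ramp1, a partner of calcitonin-type receptors, had 0.114, 0.150, 0.325 and 0.186 CPM in CD45RBlo against 82.7, 93.3 and 104 CPM in naive libraries, and Eng, a TGF-beta co-receptor, went from 35.8 to 0.138 CPM, a log2 fold change of -8.04 ± 0.391 that was -9.31 without CD45RBlo replicate 1. No naive library overlapped a CD45RBlo library for any of these genes. The rule that chose them required no overlap or 0 counts in 1 group, so this adds no support.

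Promoters are shown for the leading genes of each direction that average at least 10 CPM and have an entry, Ifng and Gzmk among those higher and Igfbp4 and Ramp1 among those lower. Cyp17a1 and Cpne7 have no sequence here. The sequences run 5′ to 3′ on the gene's strand, from 250 bases before to 50 bases after the RefSeq start on GRCm38.p6, with motif matches in capitals. Ifng lies at chr10:118440796-118441095 on the plus strand, Gzmk at chr13:113180916-113181215 on the minus strand, Igfbp4 at chr11:99040994-99041293 and Ramp1 at chr1:91179572-91179871, both on the plus strand. The RefSeq start of Gzmk lies 44943 bases inside the GENCODE span of the gene, and the other 3 starts are the same in both annotations.
Ifng: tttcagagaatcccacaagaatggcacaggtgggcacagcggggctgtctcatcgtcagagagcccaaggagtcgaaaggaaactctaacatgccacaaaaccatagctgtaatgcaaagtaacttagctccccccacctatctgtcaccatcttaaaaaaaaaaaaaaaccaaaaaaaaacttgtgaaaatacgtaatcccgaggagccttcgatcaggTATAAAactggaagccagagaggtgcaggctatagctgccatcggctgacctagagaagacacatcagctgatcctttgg
Gzmk: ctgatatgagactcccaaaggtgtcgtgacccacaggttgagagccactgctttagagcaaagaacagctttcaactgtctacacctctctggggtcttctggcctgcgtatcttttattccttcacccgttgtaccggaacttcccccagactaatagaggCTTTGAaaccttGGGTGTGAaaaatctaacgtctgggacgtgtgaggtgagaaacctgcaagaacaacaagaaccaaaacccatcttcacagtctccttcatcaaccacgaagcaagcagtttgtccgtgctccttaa
Igfbp4: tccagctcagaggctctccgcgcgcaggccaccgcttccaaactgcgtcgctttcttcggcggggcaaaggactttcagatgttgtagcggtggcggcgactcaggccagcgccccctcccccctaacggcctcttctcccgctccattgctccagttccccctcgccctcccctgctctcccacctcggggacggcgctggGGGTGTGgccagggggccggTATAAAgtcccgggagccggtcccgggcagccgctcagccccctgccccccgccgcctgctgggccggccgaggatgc
Ramp1: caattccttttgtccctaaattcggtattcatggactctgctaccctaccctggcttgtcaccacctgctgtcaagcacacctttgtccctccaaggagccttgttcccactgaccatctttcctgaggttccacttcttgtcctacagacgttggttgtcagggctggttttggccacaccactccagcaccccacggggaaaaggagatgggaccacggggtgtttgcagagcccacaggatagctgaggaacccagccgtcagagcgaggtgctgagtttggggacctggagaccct
Letters of 6 motifs were searched on both strands. They were GGTGTGA for T-box factors, then TGTGGTT for RUNX factors, then CTTTGA for TCF and LEF factors. For AP-1 they were TGANTCA, for KLF factors CACACCC, and for the TATA box TATAAA. Ifng and Igfbp4 hold TATAAA, which 13.6% of the 32851 promoters hold, starting 30 and 28 bases before the start. Gzmk holds CTTTGA (16% of promoters) and, overlapping each other, GGTGTGA (3.98%) and the KLF letters on the other strand (7.95%). Igfbp4 also holds the KLF letters, and Ramp1 holds none of the 6. These are matches of letters and nothing was measured at them.

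Adhesion receptors and markers of antigen experience were mostly higher. Of 32 tested, 26 were higher and 4 lower, with a median log2 fold change of 1.17 against -0.02 for all genes tested. Beside this list and each one below, the shares over all genes tested were 22.7% higher and 22.1% lower. The naive cells were sorted as CD44lo, so Cd44 is read here only as a check. Its level was 14.3, 12.4 and 18.2 CPM in the naive libraries and 272, 181, 216 and 223 CPM in the CD45RBlo libraries. Itgb1, the integrin beta 1 chain of receptors for matrix and VCAM-1, had 126, 121 and 118 CPM in naive and 2856, 2864, 3046 and 3509 CPM in CD45RBlo libraries, with a log2 fold change of 4.66 ± 0.109 (adjusted p = 1.83e-10). Among its partners Itga1, the alpha chain of a collagen receptor, rose from 0.113 to 47.7 CPM. Itgal, the alpha chain of LFA-1, rose by 2.00 ± 0.112, and Selplg, the P-selectin ligand, by 1.00 ± 0.0859. Itgax, the CD11c chain, rose by 7.40 ± 0.454. Itgae, the CD103 chain that binds E-cadherin, went the other way, with 4.22, 2.79, 4.76 and 3.82 CPM in CD45RBlo against 291, 280.0 and 233 CPM in naive libraries and a log2 fold change of -6.11 ± 0.163. Pecam1, which platelets also carry, fell by 1.85 on the log2 scale, and any part of platelets in that fall was not tested.

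Receptors that direct migration changed in both directions. Of 17 chemokine receptor genes tested, 11 were higher and 2 lower. Cx3cr1, the fractalkine receptor of blood-borne effector memory cells, had 1.96, 1.33 and 1.46 CPM in the naive libraries and 994, 790.2, 752 and 783 CPM in the CD45RBlo libraries, a log2 fold change of 9.02 ± 0.185 (adjusted p = 1.11e-10). Ccr2, a receptor for inflammatory chemokines, rose by 9.48 ± 0.313, and Cxcr3, receptor of the interferon-induced chemokines, rose from 42.6 to 842 CPM. The pair that fell were Ccr7, the lymph node homing receptor, and Ccr9, the receptor of gut and thymus. Ccr9 had 194, 164 and 158 CPM in naive and 3.19, 2.54, 1.08 and 0.792 CPM in CD45RBlo libraries, with a log2 fold change of -6.52 ± 0.318.

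Among 16 genes of lymph node entry and egress, 8 were higher and 7 lower, a split that turned to 6 and 7 with scaling by total counts alone and also without naive replicate 1. Ccr7 had 73.7, 159.5, 104 and 126 CPM in CD45RBlo against 1673, 1685 and 1625 CPM in naive libraries. Its log2 fold change was -3.84 ± 0.210, and the highest CD45RBlo library stayed below the lowest naive library. Among receptors of sphingosine-1-phosphate, the lipid that draws cells out of tissue, S1pr5 had 0.699, 0.424 and 0.554 CPM in the naive libraries and 576, 527, 454 and 478 CPM in the CD45RBlo libraries, and S1pr2 rose by 2.41 ± 0.135. Gpr183, a receptor for oxysterols, rose by 0.87 ± 0.132. Foxo1, the factor that drives several entry genes, fell by 1.28, and Cd69, which holds an S1P receptor inside the cell, fell by 0.82, on the log2 scale.

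**Figure D2:**
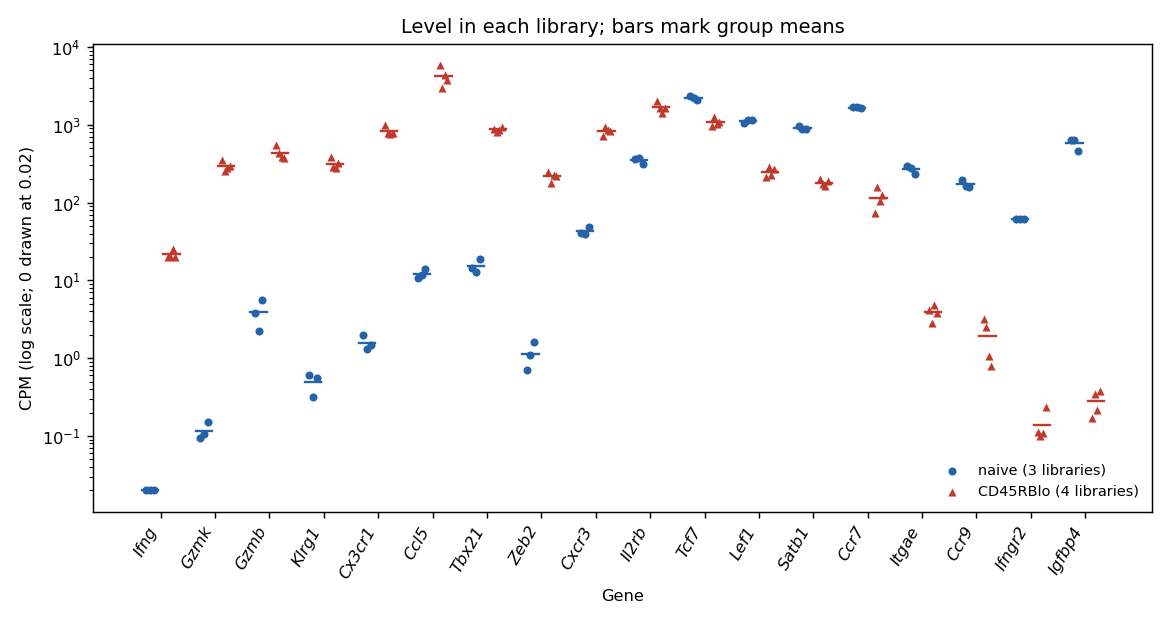
CPM on a log scale (vertical, with 0 drawn at 0.02) of 18 named genes in the 3 naive (blue circles) and 4 CD45RBlo (red triangles) libraries, with short bars at group means. No gene shown overlaps between the groups, which the choice of some of them, Ifng included, required. Over all 13172 genes tested, the groups do not overlap for 3288 that are higher and 3303 that are lower in CD45RBlo. Ifng is at 0 in every naive library, and Tcf7 differs least.

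Cytotoxic granule genes rose nearly as a set: of 17 tested, 16 were higher and none lower, with a median of 2.20. Gzmb, granzyme B, had 3.82, 2.23 and 5.59 CPM in naive and 555, 432, 381 and 378 CPM in CD45RBlo libraries, and Gzma, granzyme A, had 1511, 949, 889.8 and 1060.1 CPM in CD45RBlo against 1.91, 1.17 and 1.21 CPM in naive libraries. Gzmk, granzyme K, had 0.0932, 0.106 and 0.151 CPM in the naive libraries and 358, 254, 275 and 294 CPM in the CD45RBlo libraries, the largest rise of the set at 11.23 ± 0.237 (adjusted p = 1.17e-10). Every CD45RBlo library lay far above every naive one for these 3 granzymes. Perforin, Prf1, which opens the target membrane, was already present in naive cells at 197 CPM and rose by 2.44 ± 0.121. Nkg7, a granule membrane protein, rose from 881 to 4058 CPM, and Fasl, the ligand of the death receptor Fas, rose by 8.06 ± 0.216. Gzma and Gzmk lie with Esm1 in 132 kb of chromosome 13 (113093825 to 113225908, GRCm38), where all 3 genes tested were higher; this window, like the others below, was chosen after its values were seen. Esm1 overlaps the annotated span of Gzmk on the other strand, and the strandedness of the counting is not given, so the reads of the 2 genes cannot be told apart where their exons overlap. Of 21 genes of granule secretion, 11 were higher and 2 lower. Stx11, a syntaxin needed for granule release, rose from 4.17 to 103 CPM, the synaptotagmin-like Sytl2 and Sytl3 by 2.97 ± 0.117 and 1.53 ± 0.146, while Sytl1 and Vamp2 fell, with log2 fold changes of -0.66 ± 0.137 and -0.45 ± 0.127. Vamp2 did not pass without naive replicate 2 or 3 (adjusted p = 0.0525 and 0.0534).

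Messages of chemokines and of several cytokines were higher, and those of lymphotoxins lower. Of 20 tested, 11 were higher and 6 lower. Ifng is described above. Inflammatory chemokines also rose: Ccl5 had 10.7, 11.6 and 14.2 CPM in naive and 5836, 2971, 4408 and 3789.9 CPM in CD45RBlo libraries. Its log2 fold change was 8.45 ± 0.279, and Ccl3, Ccl4 and Ccl9 rose by 7.95 ± 0.472, 7.82 ± 0.291 and 8.78 ± 0.311, the first of them by 8.83 without naive replicate 2. These genes share 139 kb of chromosome 11 (83525778 to 83664683), where 6 of 6 tested genes were higher. The lymphotoxin genes Lta and Ltb, which organise lymphoid tissue, fell, with log2 fold changes of -1.21 ± 0.207 and -0.87 ± 0.117, and Tnfsf8, the CD30 ligand, fell by 0.89. Its receptor gene Tnfrsf8 had a single count over the naive libraries and 22.1 CPM in CD45RBlo. Tnf did not pass: it had 3.76, 3.59, 4.49 and 3.77 CPM in CD45RBlo against 3.54, 4.88 and 5.44 CPM in naive libraries, with a log2 fold change of -0.24 ± 0.228 (adjusted p = 0.418).

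Cytokine receptors changed in both directions: of 28 tested, 14 were higher, 7 lower and 7 did not pass. Chains of the receptors for IL-2, IL-15, IL-12 and IL-18 were among those that rose. Il2rb, the chain shared by IL-2 and IL-15, had 364, 372 and 309.7 CPM in the naive libraries and 2040.4, 1652, 1423 and 1629 CPM in the CD45RBlo libraries, and Il2ra and Il12rb2 rose by 4.41 ± 0.284 and 4.93 ± 0.301. Il18rap, the accessory chain of the IL-18 receptor, rose from 10.6 to 820.4 CPM. Il7r, the IL-7 receptor chain on which naive and memory survival depends, rose less, with 638, 564 and 615 CPM in naive and 756, 786, 747 and 837 CPM in CD45RBlo libraries and a log2 fold change of 0.37 ± 0.0799. Both receptor chains for IL-6 fell, Il6ra with a log2 fold change of -4.11 ± 0.175 and Il6st with -3.89 ± 0.128. The 2 chains of the interferon gamma receptor parted. Ifngr2, the signalling chain, had 0.114, 0.0997, 0.108 and 0.233 CPM in CD45RBlo against 61.5, 61.8 and 62.2 CPM in naive libraries, a log2 fold change of -8.71 ± 0.195 (adjusted p = 1.69e-10). Ifngr1, the ligand-binding chain, rose by 0.89 ± 0.0920.

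Receptors named for natural killer cells were mostly higher: of 20 tested, 17 were higher and 1 lower, with a median of 5.33. Klrg1, an inhibitory receptor for cadherins that marks differentiated effector and memory cells, had 0.606, 0.318 and 0.554 CPM in the naive libraries and 382, 283, 279 and 325 CPM in the CD45RBlo libraries, with a log2 fold change of 9.30 ± 0.217 (adjusted p = 1.83e-10). Klre1 and Klrb1c, lectin-like receptors of a chromosome 6 region that does not include Klrg1, rose by 9.19 ± 0.336 and 9.09 ± 0.350. Klra9 of the Ly49 family rose by 9.11 ± 0.323, with the reservation that Ly49 genes are near-identical copies whose reads may be split between them. In that region (128778485 to 130337574) 22 of 27 genes tested were higher and 2 lower. The separate list of NK cell and innate lymphocyte markers moved too, 10 of 14 higher and 1 lower, from 1000 to 1033 CPM summed to 5191 to 6201 CPM, and most of that sum is Gzma and Nkg7, which memory CD8 T cells also express. Ncr1, the defining NK cell gene, stood at 0.0311 CPM in naive and 0.0249 CPM in CD45RBlo libraries.

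Inhibitory and costimulatory receptors were higher more often than lower. Of 22 inhibitory genes tested, 16 were higher and 3 lower. Pdcd1, which encodes PD-1, had 2.61, 3.61 and 3.22 CPM in naive and 105, 196, 189 and 163 CPM in CD45RBlo libraries, a log2 fold change of 5.70 ± 0.255. Tigit and Havcr2, which encodes TIM-3, rose from 0.383 to 31.9 CPM and from 0.470 to 30.7 CPM. Btla fell by 0.79. Of 19 costimulatory genes tested, 12 were higher and 3 lower. Cd28, the main costimulator of naive priming, rose by 1.52 ± 0.0770, Slamf7 rose by 5.83 ± 0.166 and Cd80, a ligand of CD28, by 7.58 ± 0.317. Cd27, a TNF-family receptor that falls with effector differentiation, had 282, 399.9, 362 and 310.3 CPM in CD45RBlo against 441, 419 and 444 CPM in naive libraries. Its log2 fold change of -0.36 ± 0.114 (adjusted p = 0.0244) did not pass without any 1 of the 3 naive libraries (0.0510 to 0.0778) or CD45RBlo replicate 4 (0.0743), and Tnfrsf9, a TNF-family costimulator, fell by 1.15.

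Transcription factors of the naive and central memory state were more often lower than higher, and those of effector cells more often higher. Of 29 genes of the first list, 15 were lower and 8 higher, with a median of -0.32. Of 42 genes of the second, 28 were higher and 6 lower, with a median of 0.92. Satb1, a chromatin organiser of naive T cells, had 969, 895 and 879.8 CPM in the naive libraries and 199, 172, 163 and 191 CPM in the CD45RBlo libraries, a log2 fold change of -2.34 ± 0.0906. Lef1 and Bach2 fell, with log2 fold changes of -2.18 ± 0.110 and -2.22 ± 0.0938. Tcf7, which encodes TCF1, the factor of self-renewing memory, also fell: it had 2341, 2212 and 2076 CPM in naive and 971, 1253, 1018 and 1076 CPM in CD45RBlo libraries, a log2 fold change of -1.03 ± 0.0965 (adjusted p = 7.93e-06), and kept 1079.6 CPM in CD45RBlo cells. Foxp1, which enforces quiescence, fell by 1.03, and Id3 fell by 0.95 (adjusted p = 0.0461). Id3 did not pass without any 1 of the 3 naive libraries (adjusted p = 0.0755 to 0.119) or without CD45RBlo replicate 3 or 4 (0.0838 and 0.0670). Eomes rose most in the first list, by 1.89 ± 0.125.

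Among the effector factors Tbx21, which encodes T-bet, had 889, 817, 866 and 947 CPM in CD45RBlo against 14.6, 12.9 and 18.9 CPM in naive libraries, a log2 fold change of 5.83 ± 0.150 (adjusted p = 4.05e-10). Zeb2, a repressor that acts with T-bet, had 0.699, 1.11 and 1.61 CPM in the naive libraries and 247, 177, 226 and 222 CPM in the CD45RBlo libraries. Prdm1, or Blimp-1, rose from 3.70 to 96.1 CPM, and Id2 from 106 to 905 CPM. Bhlhe40 rose from 0.981 to 409.6 CPM and Runx2 by 5.99 ± 0.300, against 0.93 ± 0.147 for its relative Runx3. The factors of this list that fell included Egr1, Egr2 and Nr4a1, which T cell receptor signals induce, at -2.74 ± 0.171, -3.34 ± 0.354 and -1.95 ± 0.186. Their relative Nr4a2 rose by 3.38 ± 0.388, and by 3.99 without naive replicate 1. In a list of 34 immediate early and stress genes, 12 were higher and 13 lower.

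**Figure D3:**
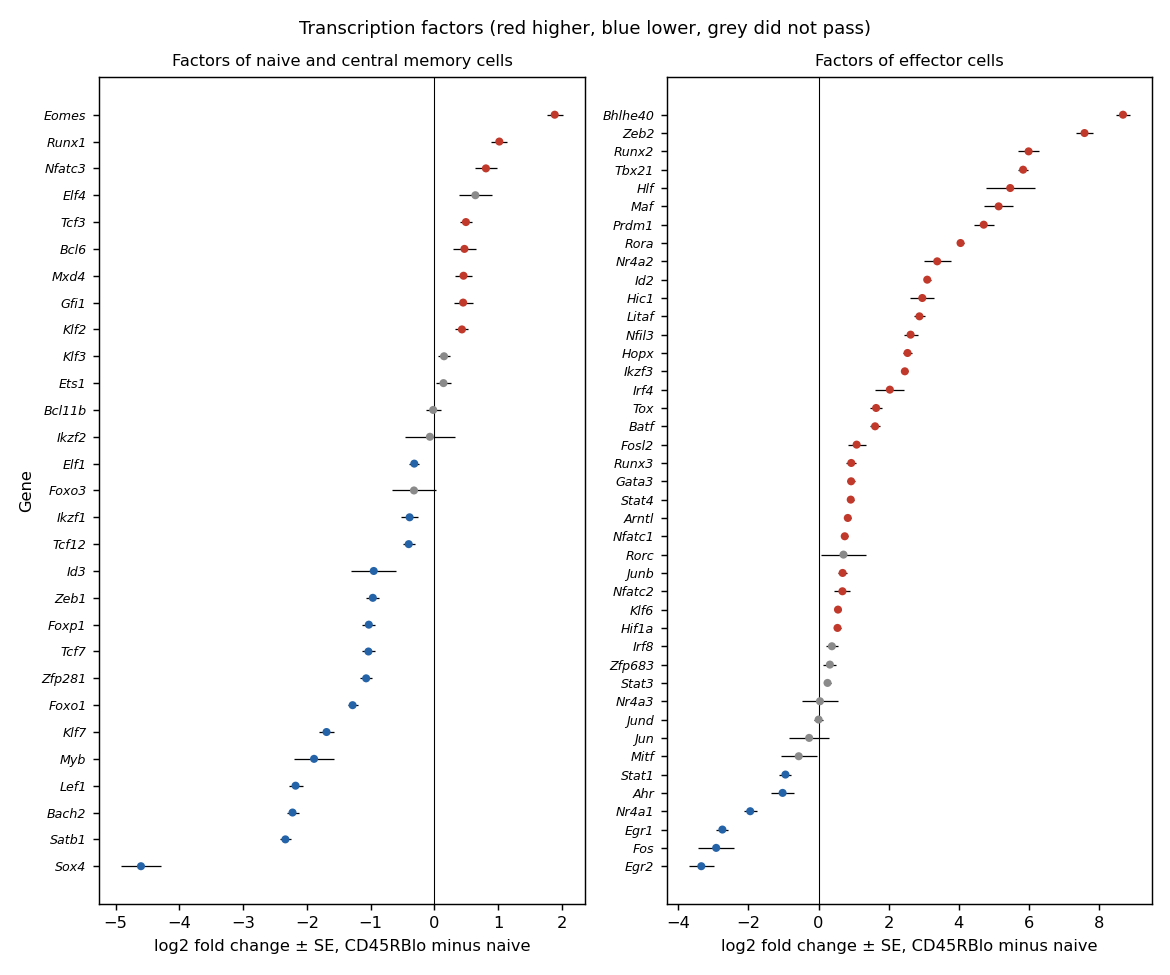
Log2 fold change of CD45RBlo minus naive with its SE for 29 factors of naive and central memory cells (left) and 42 of effector cells (right), red for higher, blue for lower and grey for those that did not pass. Most points on the left lie below 0 and most on the right above it, with Eomes highest on the left at 1.89 and Egr2 lowest on the right at -3.34.

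The antigen receptor and its first signalling steps changed in both directions. Of 50 genes tested, 16 were higher, 16 lower and 18 did not pass, with a median of 0.06, and with scaling by total counts alone 12 were higher and 19 lower. Cd3d, Cd3g and Vav1, of the receptor complex and its first exchange factor, did not pass, with log2 fold changes of 0.02 ± 0.0813, -0.01 ± 0.0988 and 0.01 ± 0.0825. The kinases Lck and Fyn rose by 0.51 ± 0.110 and 1.39 ± 0.0778, and Trat1, an adaptor of the receptor complex, fell by 3.28. Matk, a kinase that inhibits Src-family kinases, fell from 54.7 to 27.4 CPM (adjusted p = 0.000213). Themis2, a relative of the thymocyte protein Themis, rose by 2.48 ± 0.195. Ptprc, which encodes CD45, did not pass with all libraries: it had 2712, 2667 and 2677 CPM in naive and 2819, 2918, 3235 and 3110.1 CPM in CD45RBlo libraries, a log2 fold change of 0.17 ± 0.0750 (adjusted p = 0.09, and 0.0499 without CD45RBlo replicate 2). Counts per gene do not tell the exon B form from the others, so the CD45RB label itself cannot be read from these data. Of 25 genes that splice or may splice CD45, 6 were higher and 5 lower, near the shares over all genes tested, 22.7% and 22.1%. Among them Hnrnpll, the main regulator of its memory form, rose from 39.3 to 76.2 CPM with a log2 fold change of 0.95 ± 0.112 (adjusted p = 4.54e-05). With scaling by total counts alone the split of that list turned to 4 higher and 9 lower, and without naive replicate 1 to 4 and 5.

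Brakes on those signals divided, 10 higher and 15 lower of 33 tested. Dusp5, a phosphatase of nuclear ERK, rose by 2.54 ± 0.112 and Dusp6, of cytoplasmic ERK, fell by 1.70. Cish and Rgs1 rose by 2.43 ± 0.204 and 3.13 ± 0.185, and Socs3, the brake on IL-6 signals, and Rgs10 fell, with log2 fold changes of -1.68 ± 0.265 and -3.50 ± 0.160. In the BCL2 family and death pathway 11 genes of 33 were higher and 6 lower. Bcl2, the survival factor maintained by IL-7, fell by 0.37 (adjusted p = 0.0221), but not without naive replicate 3 (0.124) or CD45RBlo replicate 4 (0.0534). Bcl2a1d, another prosurvival member of the BCL2 family, which has near-identical copies, rose by 4.07 ± 0.216, the pro-death Pmaip1 by 3.28 ± 0.126 and Casp1, the inflammatory caspase, from 3.23 to 76.5 CPM. Bcl2l11, which encodes BIM, and Fas fell, with log2 fold changes of -0.62 ± 0.166 and -0.59 ± 0.172. Without naive replicate 3 neither passed (adjusted p = 0.05002 and 0.0569), nor did Fas without naive replicate 1 (0.0618).

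Enzymes that build surface sugars held some of the sharpest differences. Of 47 tested, 24 were higher and 10 lower. St6gal1, which caps N-glycans with sialic acid, had 2.05, 7.93, 2.81 and 5.40 CPM in CD45RBlo against 176, 181 and 182 CPM in naive libraries, a log2 fold change of -5.29 ± 0.327. St8sia1 and Chst15, a disialyltransferase and a sulfotransferase, fell, with log2 fold changes of -7.28 ± 0.352 and -7.85 ± 0.309. Gcnt1, the branching enzyme that prepares selectin ligands, rose by 3.40 ± 0.862, and Galnt3, Chst2 and St3gal6 rose by 7.56 ± 0.313, 3.29 ± 0.304 and 2.52 ± 0.114. Without naive replicate 1 the rises of Gcnt1 and Galnt3 were 4.10 and 8.19. With the replicate number as a block Gcnt1 did not pass (adjusted p = 0.0624).

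Cell cycle genes were higher in 25 and lower in 4 of 63 tested, with a median of 0.49. Mki67, a marker of cycling cells, had 1.26, 0.796 and 2.07 CPM in the naive libraries and 14.7, 4.89, 17.3 and 19.1 CPM in the CD45RBlo libraries, and Tyms and E2f2 rose by 2.07 ± 0.147 and 2.09 ± 0.208. The replication licensing gene Mcm7 and Tubb5 fell, with log2 fold changes of -0.37 ± 0.0786 and -0.70 ± 0.0816, and 34 members did not pass.

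Of 30 genes of glucose uptake and glycolysis, 13 were higher and 6 lower, or 10 and 7 with total counts alone. Hk2, the inducible hexokinase, rose by 2.98 ± 0.409, the transporter Slc2a3 by 1.47 ± 0.121 and Pfkp by 1.41 ± 0.0922. Pdk1, which keeps pyruvate from the mitochondrion, had 674, 688 and 701 CPM in naive and 62.2, 103, 83.8 and 80.8 CPM in CD45RBlo libraries, a log2 fold change of -3.06 ± 0.141, and Ldhb fell by 1.43. Of 38 genes of cholesterol and fatty acid synthesis, 21 were lower and 3 higher, with a median of -0.44. Abca1, which exports cholesterol, fell by 4.10, and the synthesis enzyme Mvk fell by 1.31. Those that rose were Ebp, Acat2 and Acly, by 0.73 ± 0.0984, 0.52 ± 0.128 and 0.42 ± 0.0833. Fatty acid oxidation, with 8 higher and 9 lower of 40, lay near the shares over all genes tested, 22.7% and 22.1%. Its median of -0.01 was also near that of all genes. Acsl3, an acyl-CoA ligase, fell by 5.25 and the lipid droplet protein Plin2 rose by 1.94 ± 0.162. Among 19 amino acid transporters 9 were lower and 4 higher. Slc6a19, a transporter of neutral amino acids, had 0.399, 3.19, 2.38 and 1.44 CPM in CD45RBlo against 202, 196 and 175 CPM in naive libraries, and Slc43a1 and Slc43a3 rose by 3.27 ± 0.352 and 2.33 ± 0.247.

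Messages of cytosolic ribosomal proteins were lower. Of 80 tested, 68 were lower and none higher, with a median of -0.67, and their summed level was 23201 to 24384 CPM in naive and 13458 to 16385 CPM in CD45RBlo libraries. Rpl31, Rpl12 and Rps20, which like many of the list have pseudogene copies that can take reads, fell, with log2 fold changes of -1.01 ± 0.117, -1.12 ± 0.0915 and -1.35 ± 0.102. Eef1a1, the elongation factor that carries transfer RNA to the ribosome, fell from 3783 to 2170.2 CPM. With scaling by total counts alone, 73 were lower and none higher. Mitochondrial ribosomal proteins included 6 higher and 16 lower of 76, and 54 did not pass. The share that was lower is near the 22.1% over all genes tested. With total counts alone 1 was higher and 27 lower. The direction of nuclear-encoded oxidative phosphorylation genes depended on the scaling, 13 higher and 3 lower of 76 with TMM and 6 and 12 with total counts alone; without naive replicate 1 it was 6 and 3. Of 13 mRNAs encoded in the mitochondrion, 4 were lower, 8 without CD45RBlo replicate 1, and their sum ran from 5867 to 6972 CPM in naive and from 2675 to 6274 CPM in CD45RBlo libraries, so the groups overlapped.

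Interferon-stimulated genes were lower more often than higher, 32 against 10 of 68 tested, with a median of -0.36. Iigp1 and Gbp10, interferon-induced GTPases of families with close copies, fell, with log2 fold changes of -3.08 ± 0.437 and -2.96 ± 0.271, and Oasl2 fell by 2.19. Oas1a and Gbp3 rose by 1.67 ± 0.224 and 1.46 ± 0.156. The summed level of the list ran from 7356 to 9843 CPM in naive and from 6794 to 7392 CPM in CD45RBlo libraries, overlapping at the edge. Naive replicate 1 held the top of that range, and the other naive libraries were at 7356 and 7539 CPM. It was also the highest naive library for Iigp1 at 35.8 CPM against 20.6 and 11.9, for Gbp10 at 26.4 CPM against 13.2 and 13.3, and for Oasl2 at 50.5 CPM against 30.7 and 29.9. Without that library 27 of the list were lower and 15 higher, with a median of -0.15. Class I antigen presentation rose in part, 13 higher and 2 lower of 27, or 9 and 4 with total counts alone. H2-D1 had 7232, 6774 and 7060.2 CPM in the naive libraries and 10494, 12875, 10865 and 11135 CPM in the CD45RBlo libraries, a log2 fold change of 0.69 ± 0.0860, and H2-Q7 rose by 1.94 ± 0.122. Class I heavy chain genes are alike in sequence, so reads may be split between them.

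Genes of the cell cortex and cytoskeleton rose in part. Of 23 S100 proteins, annexins and galectins, 17 were higher and 1 lower. S100a6 had 1.07, 1.06 and 1.36 CPM in naive and 539.5, 450.5, 519 and 514 CPM in CD45RBlo libraries, a log2 fold change of 8.75 ± 0.145, and S100a4 and Anxa1, calcium-binding proteins of migrating cells, rose by 7.89 ± 0.328 and 7.35 ± 0.234. Of 76 actin and motility genes, 31 were higher and 8 lower, or 27 and 13 with total counts alone. Myo1f, a class I myosin, and Swap70 rose by 3.19 ± 0.0784 and 3.36 ± 0.164, while Cnn3, a calponin, fell from 76.7 to 0.644 CPM and Actn1 fell by 2.67. Rhoa, Arpc5l and Actr3 did not pass, with log2 fold changes of -0.02 ± 0.0862, 0.03 ± 0.0971 and -0.03 ± 0.0735. All 8 GIMAP genes, GTPases of lymphocyte survival in 1 cluster on chromosome 6, were higher, 7 of 8 with total counts alone, from 0.66 for Gimap8 to 1.63 for Gimap7 among the 3 largest.

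Enzymes of DNA methylation and Polycomb were lower in 16 and higher in 5 of 39, or 21 and 3 with total counts alone. Tet1 and Tet3, which oxidise methylcytosine, fell, with log2 fold changes of -3.53 ± 0.266 and -1.60 ± 0.190. Ezh2, the Polycomb methyltransferase, rose by 1.63 ± 0.128, and Dnmt1, the maintenance methyltransferase, by 0.52 ± 0.121.

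**Figure D4:**
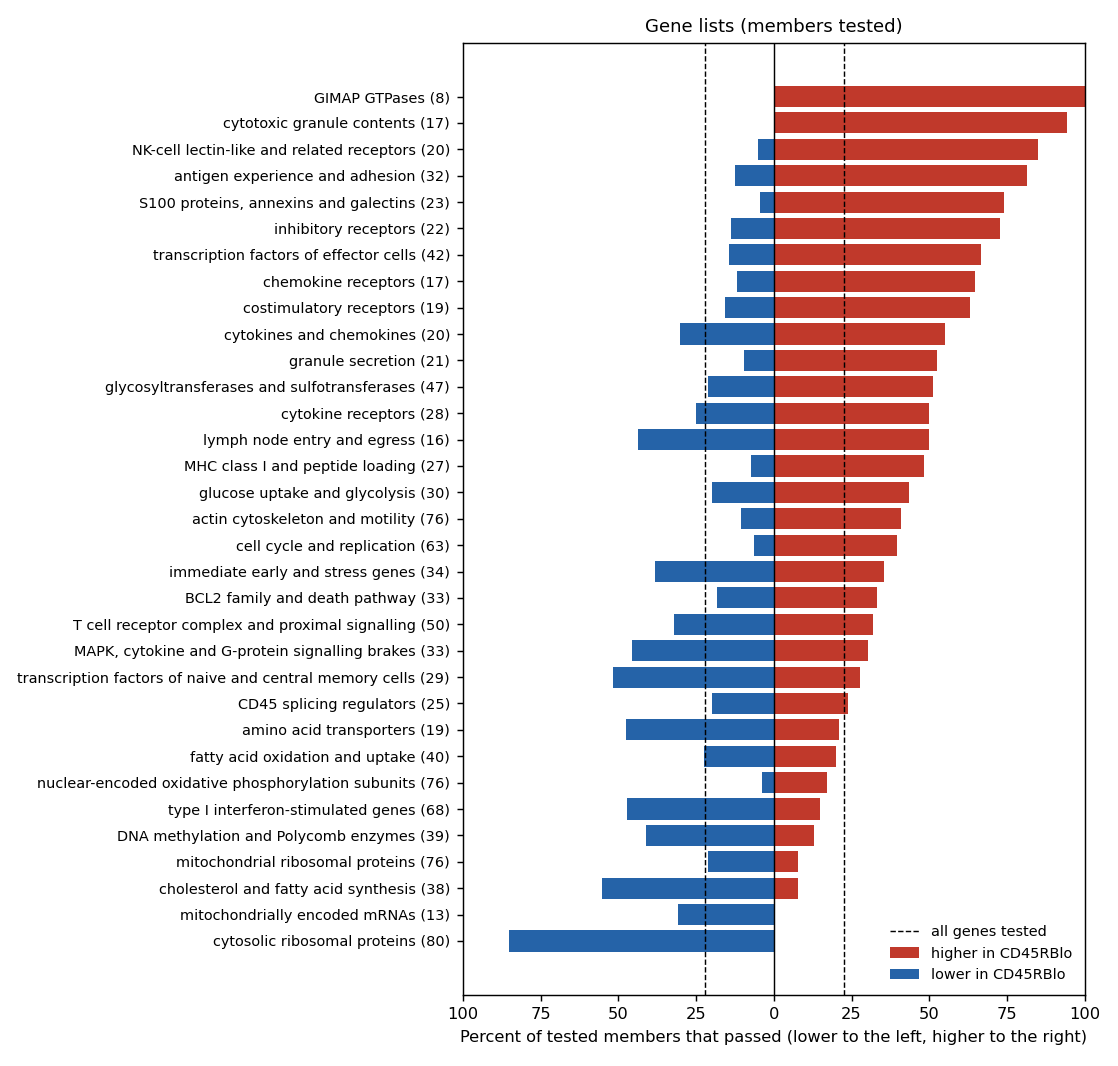
Percent of the tested members of each gene list (number tested in brackets) that passed as higher in CD45RBlo (red, right) or lower (blue, left). Dashed lines mark the shares over all genes tested, 22.7% higher and 22.1% lower; the lists of markers of other cells and of V segments are not drawn. Among the lists drawn with more than 8 genes, cytotoxic granule contents lie farthest to the right and cytosolic ribosomal proteins farthest to the left.

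A few V segments held most of the receptor counts in CD45RBlo libraries, and their shares did not overlap with those in naive libraries. The 5 leading beta chain segments of each library held 46.3% to 47.6% of Trbv counts in naive and 72.5% to 84.9% in CD45RBlo libraries. As an effective number of segments (the inverse of the summed squared shares) this was 13.7 ± 0.117 (SD, n = 3) in naive and 6.62 ± 1.15 (SD, n = 4) in CD45RBlo libraries (exact permutation test, two-sided, p = 0.0571, the smallest this design allows; the same for all 4 comparisons of this kind and after their Benjamini-Hochberg adjustment). For alpha chain segments the 5 leading ones held 22.2% to 22.6% in naive and 51.0% to 65.1% in CD45RBlo libraries, and Trav12-2 led in all 7. Naive libraries resembled each other, whereas CD45RBlo libraries differed in which beta segments led: Trbv14 in replicate 1 at 24.6%, Trbv20 and Trbv17 in replicate 2, each at 21.2%, Trbv17 in replicate 3 at 34.4% and Trbv13-2 in replicate 4 at 20.7%. Trbv19 was above its naive share of 6.08% to 6.34% in all 4, at 11.1% to 15.6%. A tetramer for 1 epitope selected the CD45RBlo cells and nothing of the kind the naive cells, so the sort and the memory state cannot be told apart here.

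**Figure D5:**
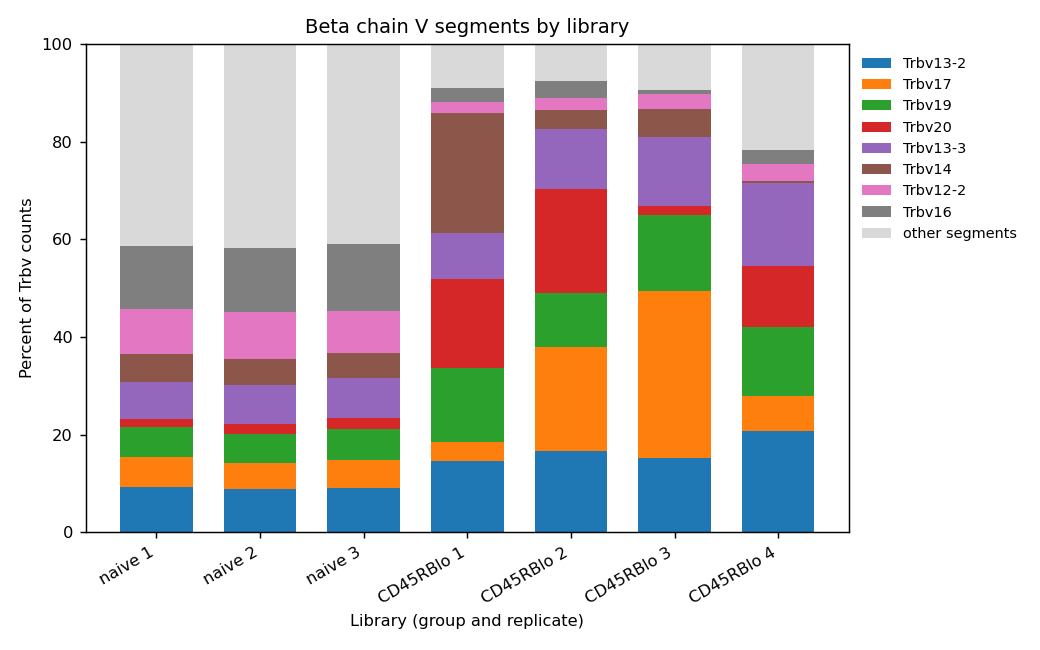
Percent of all Trbv counts taken by the named beta chain V segments (colours) in each of the 3 naive and 4 CD45RBlo libraries. The naive bars are alike, with Trbv16 leading at 12.96% to 13.6%, and the CD45RBlo bars differ from each other in Trbv14, Trbv17 and Trbv20.

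The CD45RBhi memory fraction of the same infection, with 4 libraries, was set beside these cells only to show where CD45RBlo cells differ from it. In a fit of all 11 libraries without pairing by replicate number, 17 of 13735 genes passed (0.124%), 1236 at an unadjusted p below 0.05. Of the 17, 10 lay further from naive in CD45RBlo than in CD45RBhi, 4 lay nearer and 3 did not differ from naive by the test. The log2 difference of CD45RBlo minus CD45RBhi was -0.92 for Satb1 and 1.19 for Cpne7, both further from naive. It was -0.63 for Il7r and 1.46 for Timp2, an inhibitor of matrix proteases at 209.5 CPM in naive and 33.2 CPM in CD45RBlo, both nearer to naive. For Matk it was 1.25, also nearer to naive. In the 8 memory libraries alone 4 of 12637 genes passed (2 higher and 2 lower). With the replicate number as a block in those libraries 707 passed (389 higher and 318 lower), so the count depends on the design. CD45RBlo and CD45RBhi libraries of the same number were taken at the start to deviate together. No value for this is given here, and the fit behind the 17 genes leaves it out.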

How the data were processed

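RNA was extracted and libraries were prepared with standard Illumina protocols, per the labels. Unnormalized counts, 1 whole number of reads for each of 52636 Ensembl genes in each library, were deposited by the authors. SAMtools, featureCounts, DESeq2 and the genome builds GRCm38 and mm10 are listed in the submitters' processing notes; aligner, annotation release and strand setting are unknown here. Of the identifiers, 52403 are in GENCODE M21 (GRCm38), which supplied positions and 27 symbols that had turned into dates; promoters are from RefSeq (GRCm38.p6).

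The 3 naive and 4 CD45RBlo libraries were fitted with edgeR 4.0.16 (R 4.3.3) without covariates, after filterByExpr (minimum count 10) and TMM scaling, which kept 13172 genes and 99.87% or more of the reads. The two-sided quasi-likelihood test was adjusted over all genes tested (Benjamini-Hochberg, threshold 0.05); glmTreat tested for more than 2-fold. The biological coefficient of variation was 16.1%. Values are log2 fold changes ± SE or CPM per library; a gene with 0 counts may have had up to 3, which is 0.140 to 0.171 CPM in a library, 0.0499 CPM over the naive and 0.0387 CPM over the CD45RBlo group, and cover counting error only. On simulated data (12938 genes) the naive comparison recovered 30.6% of genes changed 1.5-fold, 89.8% at 2-fold and 100% at 4-fold. Only 49 tested genes were changed at each fold, all genes had the same variation, and 5.42% of calls were false. Far more genes passed in the real data, so these rates may not hold there. Of 9 replicate pairs none was identical, with a chi-square per degree of freedom of 9.43 to 52.1. Replicate numbers do not pair naive with CD45RBlo libraries: deviations of same-numbered libraries correlated at -0.100 to 0.0560. CD45RBhi libraries entered 1 contrast and 1 alternative.

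The comparison, its gene lists and the rule for named genes were chosen with earlier results of these data known. The rule took the 12 largest changes in each direction (genes that passed, with a mean of 10 CPM or more and no overlap); the 6 highest genes with 0 counts in the other group; the 8 largest differences in CPM; up to 3 genes of each list in each direction; a fixed panel; and 8 genes near 0. Ccl3, Ccl4, Ifngr1, Timp2, Ppbp, Tubb1, Foxp3, Trdc, Blk, 2 V segments and the V segment shares were named after their values were seen. Lists are described by counts and medians, with no test. Alternatives were DESeq2 1.42.0, limma 3.58.1 voom, other scalings and filters, all 11 libraries, a replicate block, and leaving out each library. A few genes that the rule names are not reported here. Figures were drawn with matplotlib.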

Additional observations from a re-analysis of the deposited data

Results flagged for a closer look

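In the CD45RBlo group of 4, a single library lay far from the other 3 for 17 of the 185 genes named; chance flags about 1 in 20 groups, and naive groups of 3 were not checked. CD45RBlo replicate 1 was the distant library for 5: Rpl31 at 58.9 CPM against 44.5 to 45.6, Cx3cr1 at 994 against 752 to 790.2 and Ccl4 at 70.4 against 48.0 to 50.1, all high, and Nr4a2 at 5.47 against 8.97 to 9.57 and Abca1 at 0.684 against 1.99 to 2.24, both low. Replicate 2 was high for Ldhb, the heart-type lactate dehydrogenase, at 25.5 CPM against 8.76 to 9.09, for Dusp6 at 23.4 against 15.7 to 16.9 and for Cd3g at 932 against 729 to 751, and low for Itgax at 59.1 against 139 to 155. Replicate 3 was high for Rgs1 at 22.6 CPM against 16.8 to 17.7, Sytl1 at 26.0 against 18.9 to 19.8, Ifng at 25.4 against 20.1 to 20.8 and H2-Q7 at 2407 against 1757 to 1849. Replicate 4 was high for Hnrnpll at 87.6 CPM against 71.7 to 73.5 for Ifngr2 at 0.233 against 0.0997 to 0.114 and for Blk at 0.0932 against 0, and low for Gbp10 at 1.91 against 2.38 to 2.39. In every case but Cd3g, which did not pass, the distant library stayed on the same side of all 3 naive libraries as the other CD45RBlo libraries. The rule that chose Ifng and Ifngr2 required this, and many of the others were chosen as leading genes of their lists, so it adds little. Over all 13172 genes tested, the groups did not overlap for 3288 that were higher and 3303 that were lower in CD45RBlo.

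For 5 named genes the difference from naive was not equal in the CD45RBlo and CD45RBhi groups by edgeR's test of the difference. That test used the fit of all 11 libraries, without pairing by replicate number. The log2 difference of CD45RBlo minus CD45RBhi was 1.19 for Cpne7, 1.46 for Timp2, 1.25 for Matk, -0.63 for Il7r and -0.92 for Satb1.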

How the results depend on the processing

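The count of genes that passed between CD45RBlo and naive was 5906 and lay between 4536 and 6421 over the other tests, scalings, filters and samples tried, and between 4960 and 6155 when 1 library was left out. The 4536 came from a fit with the replicate number as a block (2319 higher, 2217 lower), of which 4492 were also among the 5906; the numbers do not pair these libraries. Scaling by total counts alone gave 6123. Of genes changed by more than 2-fold there were 1749, 2662 when 1.5-fold was tested and 1621 to 1752 when 1 library was left out. Between CD45RBlo and CD45RBhi the 17 genes from all 11 libraries became 4 in the 8 memory libraries alone, 707 in those libraries with the replicate block, 142 with DESeq2, and 6 to 15 when 1 of the 8 memory libraries was left out; the 8 libraries alone and the leaving out here were added after the data were seen, as was leaving out a library from the lists. With total counts alone the balance of 3 lists turned: lymph node entry and egress (13 passed, 6 higher and 7 lower), CD45 splicing (13, 4 and 9) and nuclear-encoded oxidative phosphorylation (18, 6 and 12), and 8 mitochondrially encoded mRNAs passed in place of 4. Without CD45RBlo replicate 1, 8 of them also passed. Without naive replicate 1 the balance turned for lymph node entry and egress (13 passed), CD45 splicing (9, and 10 without CD45RBlo replicate 1) and fatty acid oxidation (15, 8 higher and 7 lower), and 9 genes of oxidative phosphorylation passed in place of 16 (14 without CD45RBlo replicate 1). No named gene reversed. Of 185 named genes, 181 kept their side of the threshold with the block; Cd27, Gcnt1, Bcl2 and Trbv17 did not (adjusted p = 0.0830, 0.0624, 0.0557 and 0.0904). With DESeq2 183 did, Id3 and Trbv17 excepted (0.109 and 0.0725), and with voom 184 did, Trbv17 excepted (0.230). Ptprc passed without CD45RBlo replicate 2 (0.0499). Depth sets a floor: a gene with 0 counts in a library may have had up to 3, or 0.140 to 0.171 CPM.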

Other observations

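Classes of transcript differed in how often they passed and in which direction. Beside each class, the shares over all genes tested were 22.7% higher and 22.1% lower. By GENCODE M21 class, 2801 protein-coding genes were higher and 2398 lower of 11032 tested. Of 313 antisense transcripts 20 were higher and 108 lower, with a median log2 fold change of -0.67, or -0.80 with scaling by total counts alone, at a median level of 1.09 CPM. Of 280 transcripts of the class TEC (predicted, awaiting experimental tests) 16 were higher and 66 lower, and of 42 transcribed from bidirectional promoters 1 was higher and 18 lower. Intergenic long RNAs were lower in 98 and higher in 63 of 315. Strandedness is not given in the sources used here, so reads of an antisense transcript and of its overlapping gene cannot be told apart.

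Messages of the gamma chain of the gamma delta receptor were higher in CD45RBlo. Of 6 genes of gamma delta and innate-like T cells tested, 4 were higher and 2 lower. Tcrg-C2 and Trgv2, a constant region and a V segment of the gamma chain, rose by 6.72 ± 0.222 and 6.40 ± 0.545. The pair that fell were Trdc, the constant region of the delta chain, with a log2 fold change of -3.74 ± 0.333, and Blk, a Src-family kinase that B cells also express, which went from 2.14 to 0.0233 CPM. The rise of Trgv2 was 5.79 without naive replicate 1 and 8.76 without naive replicate 2. The summed level of the list was 9.18 to 10.5 CPM in naive and 56.6 to 90.8 CPM in CD45RBlo libraries. Zbtb7b, known as the factor of the CD4 lineage, had 11.3, 6.08, 9.14 and 8.25 CPM in CD45RBlo against 0.0466, 0.265 and 0 CPM in naive libraries. These genes were chosen by the list rule and no explanation was tested.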
